A study of Mus musculus with 6 samples.

Results

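The genes described here are 10 secreted modulators and targets of Wnt signalling, out of 45038 genes in the deposited table: the antagonists Wif1, Sfrp1, Sfrp2, Dkk2 and Dkk3, the ligands Wnt5a and Wnt2b, and the genes Axin2, Lef1 and Apcdd1, which are commonly used as readouts of canonical signalling. They were taken by name, and the set was chosen by measured values in so far as Wif1 had been noted for higher values in 2 Normal libraries, so Wif1 is described with no test. All 10 symbols occurred once in the table. RNA sequencing had been done on 6 libraries of sorted cells, 3 called MI and 3 called Normal from the tissue labels. All mice were C57BL/6, labelled 6 to 8 weeks old, and carried Tie2-Cre and Rosa-LSL-tdTomato, so that a reporter marks cells whose lineage has used the Tie2 promoter, which is active in endothelium and in part of the blood lineage. MI samples were infarct tissue taken 3 weeks after ligation of the left anterior descending coronary artery, and Normal samples were left ventricle labelled as without that surgery. In both groups, cells that carried tdTomato and lacked F4/80, an antigen of macrophages, were sorted. The titles give each group the numbers Ms1535, Ms1537 and Ms1608, and nothing in the labels says that these are separate animals, so p-values measure only the spread between these libraries. Values of a group are listed throughout in the order Ms1535, Ms1537, Ms1608, unless a library is named.

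Wnt proteins are secreted lipid-modified ligands that bind Frizzled receptors and the Lrp5 and Lrp6 co-receptors. In the canonical branch this stops the destruction of β-catenin, which then acts with the Tcf and Lef transcription factors on target genes such as Axin2. Secreted antagonists act outside the cell: Wif1 and the Sfrp proteins bind Wnt ligands, and the Dkk proteins act on Lrp co-receptors. In the healing heart these antagonists are known mainly as products of fibroblasts and other stromal cells.

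Levels are given in FPKM, fragments scaled by transcript length and library depth, so that genes of different length can be compared. The low values implied between 34.7 and 48.3 M (mega) fragments per library. Normal Ms1608 stood apart: its log2(FPKM + 1) values correlated across all genes of the table at 0.735 to 0.799 with the other libraries, which correlated at 0.883 to 0.936 among themselves. Of 14 endothelial markers, 11 lay below 1 FPKM in Normal Ms1608, against 1 in MI Ms1608 and 0 in each of the other 4 libraries. The summed endothelial markers were 290 to 1157 FPKM across MI and 1337, 943 and 38.6 FPKM across Normal, lowest in Ms1608. The markers of leukocytes summed to 2291 to 2553 FPKM across MI, against 295, 457 and 4127 FPKM in the Normal libraries. Adgre1, the gene of F4/80, measured 0.282, 1.70 and 7.21 FPKM in the MI libraries and 0.128, 0.247 and 0.00904 FPKM in the Normal libraries. It was thus highest in MI Ms1608 and lowest in Normal Ms1608. The 10 macrophage and monocyte markers, Adgre1 among them, summed to 779, 1178 and 2358 FPKM in MI. In Normal they summed to 160, 233 and 2696 FPKM, so their sum was highest in Normal Ms1608. The defining markers Csf1r and Cd68 were, like Adgre1, higher in MI Ms1608 than in Normal Ms1608. Csf1r measured 22.7 against 2.77 FPKM there, and Cd68 14.2 against 6.27 FPKM. Of the 10 markers, 3 lay below 1 FPKM in Normal Ms1608 and 0 in MI Ms1608. Pecam1, a defining endothelial marker that leukocytes and platelets also express, went the other way from the endothelial sum. It was highest in Normal Ms1608, at 28.3 FPKM against 7.20 to 23.7 FPKM in the other libraries. Cdh5 and Kdr, the other defining markers, were at 1.20 and 0.486 FPKM in Normal Ms1608, the lowest of the 6. Most endothelial markers were therefore low in Normal Ms1608, where the leukocyte markers were highest, and results below are also given without that library. The reporter also marks part of the blood lineage, so low endothelial markers do not by themselves contradict the sort described. In RNA of sorted cells in bulk, fewer cells of a type and less RNA per cell cannot be told apart.

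Sequences before the start sites of 4 members on which the results turn are shown first, because canonical targets are bound by Tcf and Lef factors. RefSeq's table for GRCm38.p6 held 9 start sites for 6 of the members: Wif1, Sfrp2, Dkk2, Wnt2b, Axin2 and Lef1. Each run reads 5′ to 3′ in the direction of the gene and ends before the start site or, for Wif1, before the first annotated exon. Capitals mark the letters CTTTGA or CTTTGT or their reverse complements TCAAAG and ACAAAG, the core bound by Tcf and Lef factors. The windows are Wif1 at chr10:121033754-121033959, Sfrp2 at chr3:83766071-83766320, Axin2 at chr11:108920099-108920348, the first Lef1 start at chr3:131110047-131110296 and the most downstream Lef1 start at chr3:131156044-131156293, all on the plus strand.
Wif1: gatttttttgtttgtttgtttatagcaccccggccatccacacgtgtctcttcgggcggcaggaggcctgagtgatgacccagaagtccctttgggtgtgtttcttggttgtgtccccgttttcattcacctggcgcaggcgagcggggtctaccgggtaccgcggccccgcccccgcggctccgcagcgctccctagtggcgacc
Sfrp2: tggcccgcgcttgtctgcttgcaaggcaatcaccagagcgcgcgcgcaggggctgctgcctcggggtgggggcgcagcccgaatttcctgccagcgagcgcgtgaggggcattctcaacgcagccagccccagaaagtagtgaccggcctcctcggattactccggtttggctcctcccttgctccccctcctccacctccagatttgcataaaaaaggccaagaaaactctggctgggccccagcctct
Axin2: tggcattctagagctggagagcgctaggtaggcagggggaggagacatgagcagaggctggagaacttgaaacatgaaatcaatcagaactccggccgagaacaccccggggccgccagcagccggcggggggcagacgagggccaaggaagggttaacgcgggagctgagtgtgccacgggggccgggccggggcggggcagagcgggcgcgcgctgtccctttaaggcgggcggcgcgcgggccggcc
Lef1 first start: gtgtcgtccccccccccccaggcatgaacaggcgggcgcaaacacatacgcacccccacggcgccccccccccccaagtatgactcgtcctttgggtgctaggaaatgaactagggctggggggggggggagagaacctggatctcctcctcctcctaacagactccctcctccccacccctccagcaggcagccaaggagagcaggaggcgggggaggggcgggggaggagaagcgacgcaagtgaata
Lef1 downstream start: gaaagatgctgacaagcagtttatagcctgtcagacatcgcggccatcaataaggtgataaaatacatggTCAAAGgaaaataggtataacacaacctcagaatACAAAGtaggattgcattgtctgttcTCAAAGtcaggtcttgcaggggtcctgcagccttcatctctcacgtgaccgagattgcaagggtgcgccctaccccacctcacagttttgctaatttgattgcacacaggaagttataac

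In the 250 bases before each start, CTTTGA on either strand was present in 13.8% of 32851 windows of all genes and CTTTGT in 16.5%. The downstream Lef1 window held TCAAAG at positions -180 and -120 relative to the start and ACAAAG at position -146. Dkk2 held CTTTGT at position -80. Neither form was found in the windows of Wif1, Sfrp2, Wnt2b, Axin2 or the other 3 Lef1 starts. A match describes letters only, and a window without one says nothing of the factors.

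With all 6 libraries, none of the members tested passed the threshold between MI and Normal, and the same held for nearly every gene. Genes that reached 1 FPKM in 3 or more libraries were tested by limma on log2(FPKM + 1), and 4 members passed this filter: Sfrp1, Sfrp2, Dkk3 and Lef1. Of 10168 genes tested, 1 passed an adjusted p of 0.05, which is 0.00983%. That gene, the small nuclear RNA Gm24890, is named because it was the single call, after its values were seen. It had 277, 527 and 252 FPKM across MI and was listed at 0 in all 3 Normal libraries. Gm24890 thus passed the filter through the MI libraries alone, and its call carries that selection. At an unadjusted p under 0.05, 1635 tested genes were higher in MI (16.1%) and 21 lower, and the median tested gene lay 0.78 log2 units higher in MI. Differences of the members are given beside that shift, which became -0.025 with median-ratio, 0.20 with upper-quartile and -0.042 with quantile scaling. Every log2 difference below subtracts the Normal mean of log2(FPKM + 1) from the MI mean, and the added 1 makes changes of low genes look smaller. By adjusted p, 4.45% of tested genes were called higher in MI without Normal Ms1608 and 14.0% without both libraries numbered Ms1608.

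**Figure D1:**
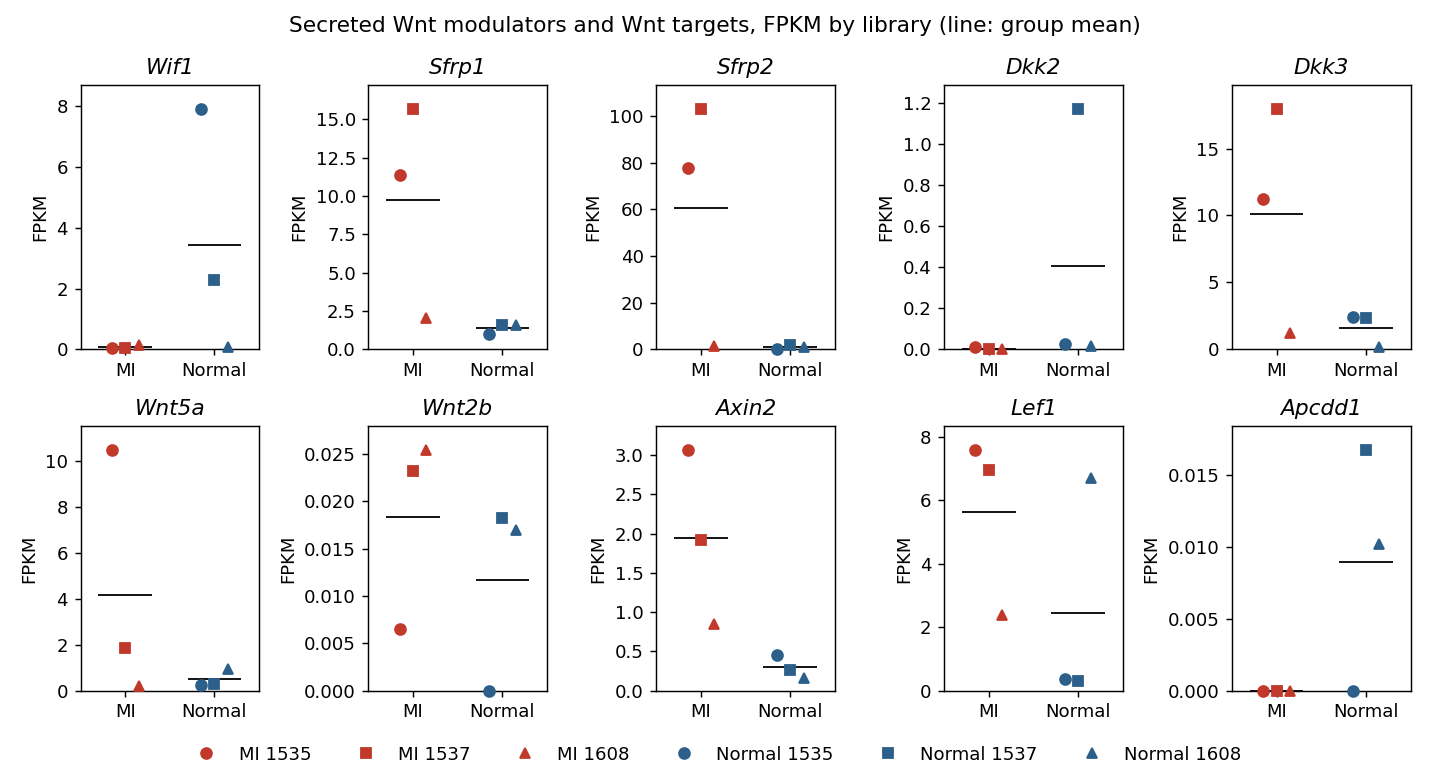
FPKM of each of the 10 genes (vertical axis, a separate linear scale per panel) in the 3 MI libraries (left, red) and the 3 Normal libraries (right, blue), with a line at the group mean and the marker shape giving the number in the title. Sfrp2 reaches 103 FPKM in MI Ms1537, whereas MI Ms1608 lies within the Normal range for Wif1, Sfrp2, Dkk3 and Lef1, and Wif1 is above 2 FPKM only in Normal Ms1535 and Ms1537.

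Wif1 and Dkk2 were the antagonists with higher means in Normal than in MI, and Wif1 was the more abundant of them. Wif1 (chr10:121033960-121100650, GRCm38, plus strand) encodes a secreted protein that binds Wnt ligands directly. Wif1 had 0.0487, 0.0551 and 0.130 FPKM in the MI libraries, against 7.91, 2.28 and 0.0814 FPKM in the Normal libraries. The high values were thus those of Normal Ms1535 and Ms1537, while Normal Ms1608 lay inside the range of MI. Group means were 0.0778 ± 0.0450 FPKM across MI and 3.42 ± 4.04 FPKM across Normal (SD, n = 3 each), and the log2 difference was -1.55, with -2.33 without Normal Ms1608 and -0.81 without Normal Ms1535. The MI values corresponded to about 5, 5 and 10 fragments on the longest annotated transcript, and the Normal values to about 727, 168 and 6. A value of 3 fragments on that transcript is 0.0293 to 0.0408 FPKM depending on the library, for counting error only. By rank within its library, Wif1 stood above 60.8%, 62.6% and 66.4% of all genes in MI and above 93.1%, 86.9% and 71.0% in Normal. Normal Ms1608, at about 6 fragments, was above MI Ms1608 by rank and below it by FPKM. These values were what Wif1 was noted for, and they are not tested.

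The Wif1 values were also expressed relative to endothelial and fibroblast markers, as a description of the same values. Per 1000 FPKM of the 14 summed endothelial markers, Wif1 was at 0.105, 0.0477 and 0.447 FPKM across MI and at 5.91, 2.41 and 2.11 FPKM across Normal. Per 1000 FPKM of the 11 summed fibroblast markers it was at 0.00859, 0.00928 and 0.111 FPKM across MI and at 9.12, 2.19 and 0.394 FPKM across Normal. On both scales Normal Ms1535 and Ms1537 were high, while the ratios of Normal Ms1608 divide about 6 fragments of Wif1 by the lowest marker sums of the 6 libraries. The fibroblast markers themselves were higher in MI, at 1165 to 5939 FPKM summed, than in Normal, at 206 to 1040 FPKM, and Pdgfra, Dcn and Lum were above 0 in every library. The summed cardiomyocyte and erythroid markers given above were also higher in Normal Ms1535 and Ms1537 than in MI Ms1535 and Ms1537. They were highest in MI Ms1608, where Wif1 was low. The part of cell composition in the Wif1 values was not tested.

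The genes nearest to Wif1 were sought by the root mean square difference of centred log2(FPKM + 1) over the 6 libraries, among 9520 genes of mean 1 FPKM or more. They were Tceal5 (0.28 log2 units), Dusp26 (0.28), Batf2 (0.32) and Wscd1 (0.38). Tceal5 had 0.0239 FPKM in MI Ms1535 and was listed at 0 in the other 2 MI libraries, against 7.41 FPKM in Normal Ms1535, 0.824 FPKM in Normal Ms1537 and a listed 0 in Normal Ms1608. Wscd1 had 0.351, 1.18 and 0.636 FPKM across MI, against 9.16, 4.90 and 0.0413 FPKM across Normal. All 4 were highest in Normal Ms1535 and second highest in Normal Ms1537.

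Sfrp2 was the most abundant member and had the largest difference of the 10. Sfrp2 (chr3:83766321-83774316, plus strand) and Sfrp1 (chr8:23411502-23449632, plus strand) encode secreted proteins with a cysteine-rich domain like that of Frizzled receptors. Sfrp2 had 77.7, 103 and 1.53 FPKM in the MI libraries, against 0.218, 1.69 and 1.18 FPKM in the Normal libraries. MI Ms1535 and Ms1537 lay far above all others, and MI Ms1608 lay below Normal Ms1537, so the groups overlapped. The mean was 60.8 ± 52.8 FPKM for MI and 1.03 ± 0.748 FPKM across Normal (SD, n = 3 each), and the difference was 3.83 (SE 1.28, limma adjusted p = 0.252). Without Normal Ms1608 the difference was 3.92 (SE 1.40, limma adjusted p = 0.112). Without both libraries numbered Ms1608 it was 5.64 (SE 0.53, limma adjusted p = 0.0208), with 2 libraries against 2.

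Sfrp1 had a smaller difference, without overlap. Sfrp1 had 11.4, 15.7 and 2.06 FPKM in the MI libraries, against 1.04, 1.62 and 1.57 FPKM in the Normal libraries. All MI libraries were above all Normal libraries, MI Ms1608 by the least. It has 1 annotated transcript, on which these values correspond to about 2311, 2712 and 300 fragments in MI and 189, 238 and 248 in Normal. The log2 difference was 1.84 (SE 0.76, limma adjusted p = 0.284), and 1.89 without Normal Ms1608 (SE 0.74, limma adjusted p = 0.128). Without both Ms1608 libraries it was 2.64 (SE 0.46, limma adjusted p = 0.0316). On ranks Sfrp1 stood above 90.8%, 91.9% and 81.8% of genes in MI and above 80.4%, 84.6% and 86.1% in Normal, so that MI Ms1608 then lay within the Normal range. With scaling the difference was between 0.84 and 1.26.

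Dkk3 resembled Sfrp1 in level but not in its overlap, and Dkk2 was close to the limit of detection in 5 libraries. Dkk3 (chr7:112116017-112159057, minus strand) encodes a secreted relative of the Dkk antagonists whose action on Wnt signalling is less settled. Dkk3 had 11.2, 18.0 and 1.25 FPKM in the MI libraries, against 2.41, 2.32 and 0.151 FPKM in the Normal libraries. In each group the library numbered Ms1608 was the lowest, and MI Ms1608 lay below Normal Ms1535 and Ms1537. The log2 difference was 1.77 (SE 0.89, limma adjusted p = 0.333), 1.26 without Normal Ms1608 (SE 0.84, limma adjusted p = 0.309) and 2.18 without both (SE 0.47, limma adjusted p = 0.0402). It was 2.69 without MI Ms1608 and 1.16 without MI Ms1537. Dkk2 (chr3:132085292-132180304, plus strand), an antagonist that binds Lrp co-receptors, had 0.0117 FPKM in MI Ms1535 and was listed at 0 in MI Ms1537 and Ms1608. In the Normal libraries it had 0.0261, 1.17 and 0.0151 FPKM. On its 1 annotated transcript this is about 2 fragments in MI Ms1535, against about 4, 144 and 2 fragments in Normal. The log2 difference was -0.39, and -0.024 without Normal Ms1537. The value of Normal Ms1537 therefore decides the Dkk2 mean of 0.403 ± 0.663 FPKM across Normal (SD, n = 3), and the other libraries lie near or below 3 fragments, which is 0.0176 to 0.0245 FPKM.

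The make-up of the antagonists differed between libraries. Summed over Wif1, Sfrp1, Sfrp2, Dkk2 and Dkk3, they reached 100.4, 137 and 4.97 FPKM across MI and 11.6, 9.08 and 2.99 FPKM across Normal. Sfrp2 gave 77.4%, 75.4% and 30.7% of that sum in MI and 1.88%, 18.6% and 39.3% in Normal. Wif1 gave 0.0485%, 0.0403% and 2.61% in MI and 68.2%, 25.1% and 2.72% in Normal. Over all 10 genes, the highest was Sfrp2 in MI Ms1535 and Ms1537 and Lef1 in MI Ms1608. In Normal it was Wif1 in Ms1535, Dkk3 in Ms1537, at 2.32 against 2.28 FPKM for Wif1, and Lef1 in Ms1608.

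**Figure D2:**
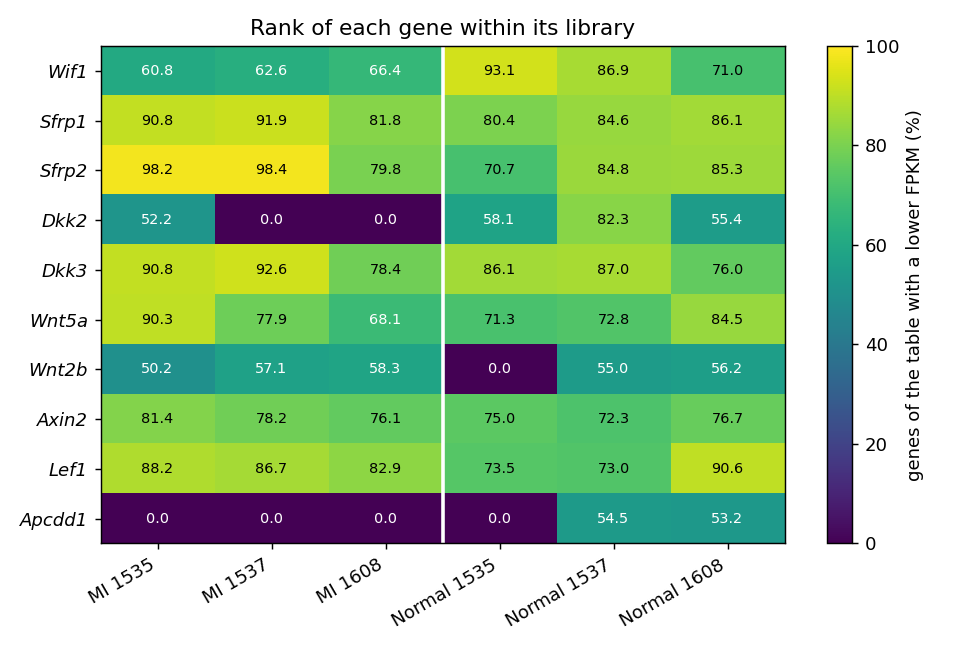
Share of all genes in the table with a lower FPKM than the gene named (per cent, colour and printed value), with the 3 MI libraries on the left and the 3 Normal libraries on the right. Sfrp2 stands above 98.2% and 98.4% of genes in MI Ms1535 and Ms1537, and a value of 0.0 marks a gene listed at 0 FPKM in that library.

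Sfrp2, Sfrp1 and Dkk3 were highest in the MI libraries with the highest fibroblast markers. The 11 markers summed to 5675, 5939 and 1165 FPKM in the MI libraries, against 867, 1040 and 206 FPKM in the Normal libraries. Per 1000 FPKM of these markers Sfrp2 was at 13.7, 17.4 and 1.31 FPKM across MI and at 0.251, 1.63 and 5.70 FPKM across Normal. Sfrp1 was at 2.01, 2.64 and 1.77 FPKM per 1000 in MI and at 1.20, 1.56 and 7.59 FPKM per 1000 in Normal. Dkk3 was at 1.98, 3.02 and 1.07 FPKM per 1000 in MI and at 2.78, 2.23 and 0.731 FPKM per 1000 in Normal. On this scale the groups overlapped for all 3 genes. For Sfrp1 they did so through Normal Ms1608 alone, whose ratio divides by the lowest fibroblast sum of the 6 libraries. For Sfrp2, MI Ms1535 and Ms1537 remained above every Normal library. These ratios were chosen after the values were seen, and the part of fibroblast RNA in the differences was not tested. The nearest genes to Sfrp2 by the same measure as for Wif1 were Angptl7 (0.58 log2 units), Col3a1 (0.59), Cthrc1 (0.60) and Col1a2 (0.79).

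**Figure D3:**
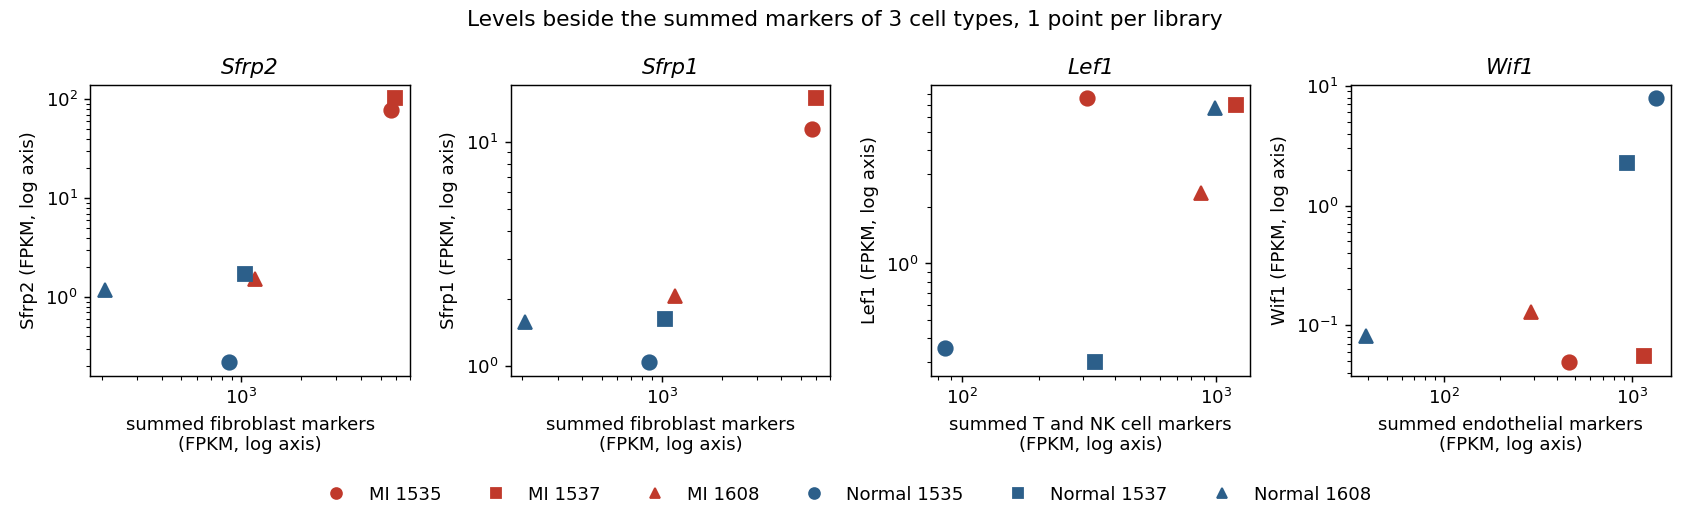
FPKM of Sfrp2, Sfrp1, Lef1 and Wif1 (vertical, log axes) against the summed FPKM of the marker list named under each panel (horizontal, log axes), 1 point per library, MI in red and Normal in blue. Normal Ms1608 has 38.6 FPKM of summed endothelial markers, and MI Ms1535 and Ms1537 combine the highest fibroblast markers with the highest Sfrp2 and Sfrp1.

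Of the ligands, Wnt5a was measured at a moderate level in MI Ms1535, and Wnt2b was barely detected. Wnt5a (chr14:28504750-28527448, plus strand) signals mainly without β-catenin, through receptors such as Ror2. Wnt5a had 10.5, 1.84 and 0.183 FPKM in the MI libraries, against 0.245, 0.289 and 0.928 FPKM in the Normal libraries. The MI values spanned the Normal ones, with MI Ms1608 the lowest of the 6. Its mean was 4.16 ± 5.51 FPKM across MI and 0.487 ± 0.382 FPKM across Normal (SD, n = 3 each). The log2 difference was 1.21, with 1.41 without Normal Ms1608, 0.33 without MI Ms1535 and 1.97 without MI Ms1608, and in a fit without a filter on low values its SE was 0.87 (limma adjusted p = 0.649). Wnt2b (chr3:104945272-104961921, minus strand), a canonical ligand, had 0.00655, 0.0232 and 0.0254 FPKM across MI and 0.0182 and 0.0170 FPKM in Normal Ms1537 and Ms1608, and was listed at 0 in Normal Ms1535. These are about 1, 3 and 3 fragments in MI and 0, 2 and 2 in Normal, so a difference was not detectable at this depth.

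Axin2, the scaffold of the β-catenin destruction complex that is itself induced by Wnt signalling, was low in all libraries and without overlap between groups. Axin2 (chr11:108920349-108950783, plus strand) had 3.06, 1.92 and 0.845 FPKM in the MI libraries, against 0.457, 0.264 and 0.167 FPKM in the Normal libraries. All MI libraries lay above all Normal libraries, and in both groups Ms1608 was the lowest. Means were 1.94 ± 1.11 FPKM across MI and 0.296 ± 0.147 FPKM across Normal (SD, n = 3 each). It lay below the filter, and in the fit without one its log2 difference of 1.12 had an SE of 0.48 (limma adjusted p = 0.649). Without Normal Ms1608 the difference was 1.04. With scaling by median ratio, upper quartile or quantiles it was 0.64, 0.74 and 0.12. On ranks Axin2 stood above 81.4%, 78.2% and 76.1% of genes in MI and above 75.0%, 72.3% and 76.7% in Normal, so that Normal Ms1608 then lay above MI Ms1608. Per 1000 FPKM of the fibroblast markers Axin2 was at 0.539, 0.323 and 0.725 FPKM across MI and at 0.527, 0.254 and 0.808 FPKM across Normal. Relative to 1000 FPKM of endothelial markers it was at 6.62, 1.66 and 2.91 FPKM across MI and at 0.341, 0.280 and 4.32 FPKM across Normal. On both scales the groups overlapped, on the endothelial one through Normal Ms1608 alone, and the part of cell composition in the Axin2 values was not tested.

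Lef1 divided the libraries in another way from Axin2. Lef1 (chr3:131110471-131224356, plus strand) encodes a transcription factor that binds DNA for β-catenin and is also strongly expressed by T lymphocytes. Lef1 had 7.58, 6.96 and 2.38 FPKM in the MI libraries, against 0.354, 0.298 and 6.72 FPKM in the Normal libraries. Normal Ms1608 was nearly as high as MI Ms1537, and the other Normal libraries were the lowest of the 6. The log2 difference was 1.36 (SE 0.82, limma adjusted p = 0.400). Without Normal Ms1608 it was 2.21 (SE 0.54, limma adjusted p = 0.0541), and the groups no longer overlapped. Without both Ms1608 libraries it was 2.64 (SE 0.42, limma adjusted p = 0.0290). Of the Normal libraries only Ms1608 reached 1 FPKM of Lef1. Once it was left out, Lef1 met the filter through the MI libraries alone, and both of these p-values carry that selection.

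Normal Ms1535 and Ms1537, the libraries lowest in Lef1, were also the lowest in the summed pan-leukocyte markers given above, and in those of B cells. The 12 T and NK cell markers summed to 311, 1197 and 872 FPKM in the MI libraries, against 85.8, 333 and 991 FPKM in the Normal libraries. In that sum MI Ms1535 lay below Normal Ms1537, unlike Lef1. Cd3g, a chain of the T cell receptor complex, had 27.4, 20.6 and 7.64 FPKM across MI and 0.499, 1.83 and 19.7 FPKM across Normal. Cd3d had 57.8, 64.7 and 23.4 FPKM across MI and 4.23, 7.11 and 122 FPKM across Normal. Cd3e had 12.5, 69.1 and 1.96 FPKM across MI and 0.968, 3.39 and 15.7 FPKM across Normal. For Cd3e, MI Ms1608 lay below Normal Ms1537, again unlike Lef1. Cd3e, Cd3d and Cd3g were above 0 in every library. Per 1000 FPKM of the 10 pan-leukocyte markers, Lef1 was at 3.14, 2.73 and 1.04 FPKM across MI and at 1.20, 0.652 and 1.63 FPKM across Normal. Relative to 1000 FPKM of T and NK cell markers Lef1 was at 24.4, 5.82 and 2.73 FPKM across MI and at 4.12, 0.894 and 6.78 FPKM across Normal. On both scales the groups overlapped. The part of lymphocyte RNA in the Lef1 values was not tested. By the measure used for Wif1, the nearest genes to Lef1 were Pabpc4 (0.13 log2 units), Hnrnpa2b1 (0.17), Lrrfip1 (0.17) and Arid2 (0.20).

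Apcdd1 (chr18:62922231-62961179, plus strand), which encodes a membrane-bound inhibitor of Wnt signalling that is also a target of it, was hardly measured. It was listed at 0 in all 3 MI libraries and in Normal Ms1535, and had 0.0167 and 0.0102 FPKM in Normal Ms1537 and Ms1608. No fold change is given.

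**Figure D4:**
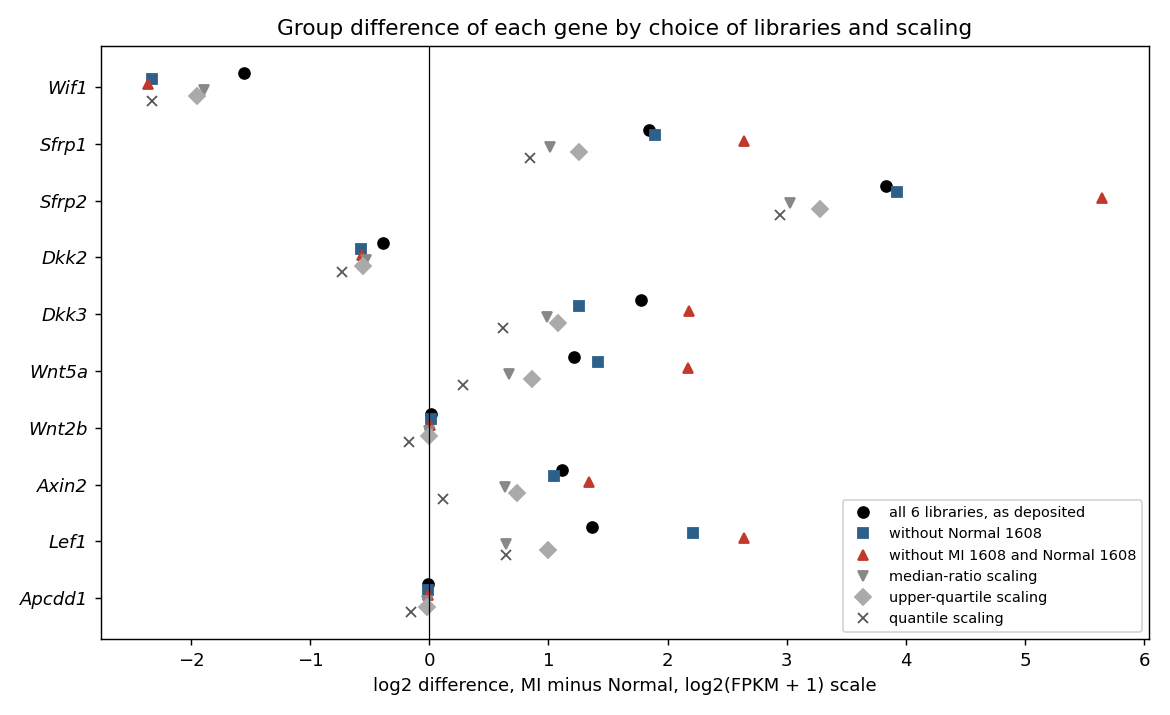
Difference of each gene in log2(FPKM + 1), MI minus Normal (horizontal axis), with all 6 libraries, without Normal Ms1608, without both Ms1608 libraries, and after median-ratio, upper-quartile or quantile scaling. Sfrp2 lies between 2.94 and 5.64 and Wif1 between -2.36 and -1.55 under the settings drawn, while Wnt2b and Apcdd1 lie close to 0.

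Counted without a filter, 2 of the 10 members, Sfrp1 and Axin2, had every MI library above every Normal library, where 12.6% of the 30727 genes above 0 in any library did. Dkk2 alone had every MI library below every Normal library, with all values but that of Normal Ms1537 near or below 3 fragments, where 2.001% of those genes did. Without Normal Ms1608 this held for Dkk2, where 5.78% of genes did, and for Wif1. Wif1 had been noted for its values in the Normal libraries that remain, so its order is not set against that share. Without Normal Ms1608 every MI library was above for 3 members, with Lef1 added, against 24.5% of genes. Without both Ms1608 libraries it was 6, with Sfrp2, Dkk3 and Wnt5a, against 34.6% of genes, and with so few libraries such an order is common. The shared numbers are not known to pair the libraries. In the libraries numbered Ms1608 the difference between MI and Normal was 0.25 log2 units for Sfrp1, 0.22 for Sfrp2, 0.97 for Dkk3, 0.66 for Axin2, -0.70 for Wnt5a and -1.19 for Lef1. In those numbered Ms1535 the same differences were 2.61, 6.01, 1.84, 1.48, 3.20 and 2.66, and in those numbered Ms1537 they were 2.67, 5.27, 2.51, 1.21, 1.14 and 2.62. The Ms1608 libraries thus had the smallest or an opposite difference for each of these 6 genes.

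The rest of the pathway was described from 5 lists of ligands, receptors, other secreted modulators, intracellular components and other targets. They hold 93 symbols, of which 91 were in the table, the other 2 being second names of listed genes, and 31 passed the filter. By limma 0 of the 31 passed the threshold in either direction with all 6 libraries, and at an unadjusted p under 0.05, 9 were higher and 0 lower, beside 1635 (16.1%) higher and 21 lower of all 10168. Of these 9 genes, Wnt9a and Nkd2 passed the filter through the MI libraries alone and so had to differ. The 9 included both tested genes of the ligand list, 1 of 7 receptors, 1 of 3 secreted modulators, 4 of 16 intracellular components and 1 of 3 targets, numbers too small to set against that share. Over the 31 genes the median log2 difference was 0.92, beside 0.78 for all tested genes, and 30 of the 31 were above 0, beside 8870 of all 10168. Without Normal Ms1608 the list's median was 0.80 and that of all tested genes 0.83. Of the 91 genes, 18 had every MI library above every Normal library, beside 12.6% of the genes above 0 in any library. Another 3 had every MI library below, beside 2.001%, and these 3 had at most 0.185 FPKM in any library. Among tested genes, 14 of the 31 had every MI library above, beside 2542 of all 10168, and 0 had every MI library below, beside 36.

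Among ligands and their secretion, Wls, the carrier that takes Wnt proteins to the cell surface, had 22.8, 21.9 and 4.51 FPKM across MI, against 3.17, 3.62 and 0.0276 FPKM across Normal. The ligand Wnt9a had 2.85, 6.03 and 1.02 FPKM across MI, against 0.0440, 0.0456 and 0.0339 FPKM across Normal, with a log2 difference at 1.87 (SE 0.48, limma adjusted p = 0.245). Both genes were higher in all MI libraries. Wnt4, a ligand, was at 10.6 FPKM in MI Ms1535 and at most 0.108 FPKM in every other library, and Wnt11, also a ligand, was between 0.109 and 1.57 FPKM across all 6.

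The receptors named, the most abundant of their list, were all lowest in Normal Ms1608. Ryk, a Wnt receptor of the tyrosine kinase family, had 15.0, 16.4 and 4.12 FPKM across MI and 2.38, 11.4 and 0.159 FPKM across Normal. Fzd4, a Frizzled receptor important in endothelium, had 0.681, 7.60 and 0.542 FPKM across MI and 6.35, 1.36 and 0.0759 FPKM across Normal, and its partner Tspan12 had 2.89, 9.38 and 2.38 FPKM across MI and 10.9, 6.37 and 0.0270 FPKM across Normal. For both the groups overlapped. Fzd1, another Frizzled receptor, had 14.7, 5.53 and 0.702 FPKM across MI and 0.516, 0.826 and 0.0927 FPKM across Normal.

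Of the other secreted modulators, Frzb reached the level of Sfrp2 in MI Ms1537. Frzb, a secreted relative of the Sfrp proteins, had 13.7, 105 and 9.36 FPKM across MI, against 7.06, 1.67 and 0.143 FPKM across Normal, with a log2 difference at 3.12 (SE 1.05, limma adjusted p = 0.252). Cthrc1, a secreted protein of activated fibroblasts, had 43.7, 21.6 and 0.0391 FPKM across MI and 0.0312, 0.09997 and 0.147 FPKM across Normal. Like Sfrp2 it was high in MI Ms1535 and Ms1537 alone. Igfbp4, an IGF binding protein that also antagonises Wnt signalling, had 44.7, 37.4 and 23.3 FPKM across MI, against 8.85, 21.1 and 9.47 FPKM across Normal, and did not overlap. Rspo1, an enhancer of Wnt signalling, had 12.96, 1.71 and 1.27 FPKM across MI and 0.669, 2.90 and 1.23 FPKM across Normal.

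Inside the cell, β-catenin itself (Ctnnb1) had 26.9, 59.6 and 15.6 FPKM across MI and 29.4, 23.1 and 18.5 FPKM across Normal, with a log2 difference at 0.32 (SE 0.71, limma adjusted p = 0.839). Its inhibitor Ctnnbip1 had 50.3, 44.9 and 48.2 FPKM across MI, against 85.6, 77.0 and 0.802 FPKM across Normal, so that MI lay below Normal Ms1535 and Ms1537 and above Normal Ms1608. Csnk1a1, a kinase of the destruction complex, and Tle4, a co-repressor, were both highest in Normal Ms1608, at 84.0 and 28.4 FPKM. Among other targets, Nkd2, a feedback inhibitor, had 3.27, 4.32 and 1.66 FPKM across MI and 0.638, 0.0522 and 0.0211 FPKM across Normal, with a log2 difference at 1.70 (SE 0.44, limma adjusted p = 0.245). The ubiquitin ligase Znrf3, another feedback inhibitor, had 2.53, 1.09 and 0.484 FPKM across MI and 0.0864, 0.0718 and 0.367 FPKM across Normal, and did not overlap. Myc and Ccnd1, growth genes with many other regulators, overlapped between groups. Myc was at 7.40 FPKM in Normal Ms1608, close to the 7.505 FPKM of MI Ms1535, and Ccnd1 was at 2.15e-07 FPKM in Normal Ms1608, the lowest of the 6.

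**Figure D5:**
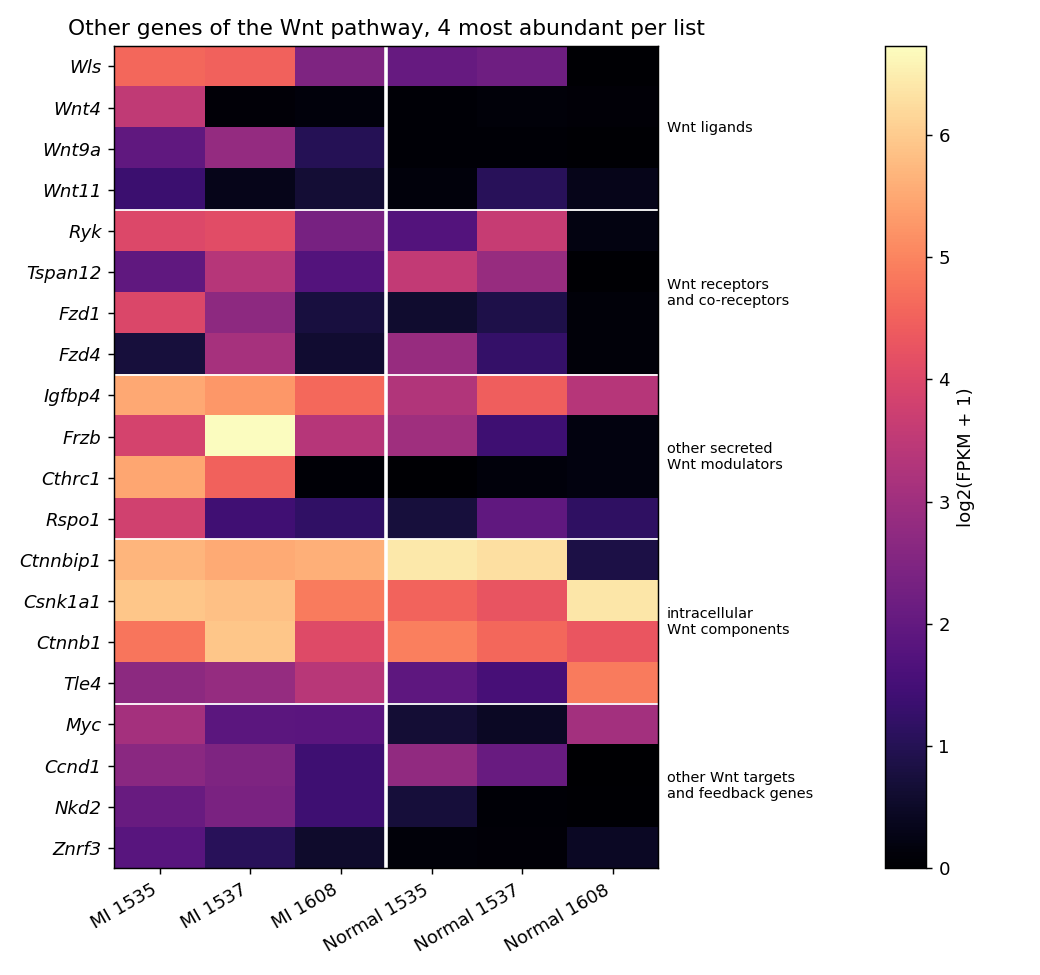
Log2(FPKM + 1) (colour) of the 4 most abundant genes of each of 5 Wnt pathway lists, in the 3 MI libraries (left) and the 3 Normal libraries (right). Wls, Wnt9a, Frzb, Igfbp4 and Nkd2 are higher in all MI libraries than in all Normal libraries, and Normal Ms1608 is dark for most receptors and ligands.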

How the data were processed

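The authors deposited 1 table of FPKM values, with 1 column per library for 6 libraries (3 MI, 3 Normal). Per the submitters' processing notes, STAR 2.4.2a, Cufflinks 2.2.1 and the build GRCm38 were used; the release of the gene models and the handling of strand and of reads with several alignments are not stated in the sources used here. Per the labels' protocols, RNA was amplified by T7 in vitro transcription, which can widen the spread between libraries. Depth was read from the steps that single fragments leave in low FPKM values of genes with 1 transcript in GENCODE M21 (GRCm38): 91.6% to 93.7% of those values lay within 0.1 of a whole number of fragments, against 20% for values spread evenly, although the step came from a fit to the same values. The labels' protocol gives a smaller amount of reads per sample, which was not reconciled. Fragments of amplified RNA are not independent molecules, so these numbers cover counting error only. Identifiers of 44394 genes (98.6%) matched the annotation.

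Genes that reached 1 FPKM in 3 or more libraries (10168) were compared on log2(FPKM + 1) by limma 3.58.1 (R 4.3.3, trended prior variance), with group as the only term and no further scaling. P-values are two-sided and adjusted over all tested genes by the Benjamini-Hochberg method (threshold 0.05). The code was tested on simulated data. An exact two-sided permutation test of 3 libraries against 3 cannot give a p below 0.1, and was not used. Members below the filter are given by their values and, where stated, by a fit without a filter. The 10 members and the lists were chosen with earlier results of these data known. Genes named are the members and the 4 most abundant genes of each pathway list. First markers are named only from the endothelial, macrophage, fibroblast and T and NK cell lists. The 4 nearest genes to Wif1, Lef1 and the most abundant member are also named, and exceptions are stated. Alternatives were other pseudocounts, filters and scalings, libraries left out, a replicate block and limma without a trend.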

Additional observations from a re-analysis of the deposited data

How the results depend on the processing

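With all 6 libraries the number of genes called by limma was 1 under every pseudocount, filter, scaling and trend setting tried. Leaving out 1 library at a time gave between 1 and 459 calls, the highest without Normal Ms1608 and 2 without MI Ms1537, and leaving out both Ms1608 libraries gave 1469. For the Wnt pathway lists the count of 0 became 0 to 1 when 1 library was left out and 6 without both Ms1608 libraries. The median log2 difference of these lists, 0.92, became 1.48 and 0.42 with pseudocounts of 0.1 and 5, 0.32 without a filter, and 0.18, 0.36 and 0.0040 with median-ratio, upper-quartile and quantile scaling, where the median of all genes moved too. Wnt2b, at 0.0095, turned to -0.0067, -0.00035 and -0.17 under the 3 scalings. The other 9 members kept the sign of their difference in every setting that gave them a value. Sfrp1, Sfrp2, Dkk3 and Lef1 passed the threshold only without both Ms1608 libraries, where 14.0% of all tested genes were called higher. That setting leaves out MI Ms1608, the lowest MI library for each of these members. Without MI Ms1608 alone their limma adjusted p was 0.248, 0.248, 0.257 and 0.367, in the order named. With pseudocounts of 0.1 and 5 the difference of Wif1 was -3.12 and -0.62 and that of Axin2 was 2.27 and 0.38. The cause of these shifts was not tested, apart from the smaller weight that a larger pseudocount gives to low values. The numbers in the titles were not taken to pair the libraries, because the labels do not state a pairing. Deviations of same-numbered libraries correlated at -0.05, 0.10 and 0.09, and those of differently numbered ones at -0.115 to 0.104. With so few libraries these correlations cannot decide whether the numbers are animals. With the number as a replicate block, 1 gene was called, as without it, and no member changed its call. Depth limits Dkk2, Wnt2b and Apcdd1, most of whose values lie near or below 3 fragments.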

Other observations

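Axin1, the constitutive counterpart of Axin2 in the destruction complex, was chosen after its values were seen. Axin1 had 16.5, 11.7 and 6.83 FPKM in the MI libraries, against 0.684, 0.923 and 1.05 FPKM in the Normal libraries. All MI libraries lay above all Normal libraries, Normal Ms1608 included. The log2 difference of Axin1 was 2.68 (SE 0.63, limma adjusted p = 0.245), and without Normal Ms1608 its limma adjusted p was 0.0321. In that comparison it was the only call among the 31 tested genes of the pathway lists, beside 4.45% of all tested genes called higher. Of the Normal libraries only Ms1608 reached 1 FPKM of Axin1. Without that library, Axin1 met the filter through the MI libraries alone, and the call carries that selection. Without both Ms1608 libraries, 6 genes of those lists were called higher in MI: Wls, Wnt9a, Csnk1a1, Axin1, Tcf7 and Nkd2. In that comparison 14.0% of all tested genes were called higher, and Wnt9a and Nkd2 had passed the filter through the MI libraries alone. Axin1 and Tcf7 had reached 1 FPKM in no Normal library but Ms1608, which was left out, so the same limit holds for them.

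Tcf7, a relative of Lef1 that T cells also express, had 2.05, 3.96 and 2.21 FPKM across MI and 0.241, 0.0998 and 1.57 FPKM across Normal. Unlike Lef1 it did not overlap between groups (log2 difference 1.26, SE 0.49, limma adjusted p = 0.272). It was likewise chosen after its values were seen.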
